A study of Mus musculus with 16 samples.

Results

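The gene body of Soga1 carried less DNA methylation in oocytes of superovulated prepubertal females than in oocytes of 3 other origins. Soga1 (ENSMUSG00000055485) lies on chromosome 2 of the mouse genome build GRCm38 at chr2:157015799-157079254, on the minus strand, and spans 63456 bp with 15 exons and 14 introns. It is 1 of 55450 annotated genes, and 1 of 11788 genes whose body held at least 50 CpG calls in every library. The gene was chosen by these measured values, because its body had a lower percentage of methylated calls in the prepubertal superovulation group than in each of the other groups. Comparisons of that group with the others are therefore given as a description, with no test. Soga1 itself was tested only among the other groups.

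The data were CpG methylation calls from 16 post-bisulfite adapter tagging (PBAT) libraries of mature (MII) oocytes from C57BL/6J X CBA/Ca F1 females. In PBAT, adapters are added after the bisulfite step, so that few cells give a library. The IFC group (4 libraries) came from preantral follicles of 13-day-old females that were grown for 10 days in culture with follicle-stimulating hormone and matured with hCG, so that the labels give an age of 23 days. The SO group (5 libraries) came from females of 23 days given 2.5 IU of eCG and then the same dose of hCG, and the SOA group (4 libraries) from adults of 10 weeks given 5 IU of each. The IV group (3 libraries) came from adults of 10 weeks that ovulated naturally, with no hormone. Each library was made from a pool of oocytes, so cells with partial methylation and a mix of differing oocytes cannot be told apart. All females were of 1 hybrid strain, and calls were made against the C57BL/6J sequence, so a CBA/Ca base change from C to T at a CpG would read as unmethylated in every group alike. Age and hormone dose differ together between SO and SOA and cannot be told apart.

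Soga1 encodes a coiled-coil protein of the MTCL family, whose members bind microtubules. It was first described as a suppressor of glucose production by the liver that acts through autophagy downstream of adiponectin. In growing oocytes, DNA methylation is laid down mainly over transcribed gene bodies, after transcription has passed and the histone mark H3K36me3 has been left behind. Active promoters with many CpGs stay free of it. The level over a gene body in a mature oocyte is therefore a record of the growth phase. No RNA was measured here.

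The libraries held 5218053 to 23065411 CpG calls, and 65.5% to 91.5% of covered positions were seen by a single call. All 4 IFC libraries, SO1, SO2 and SOA1 to SOA3 held under 10000000 calls, and the other 7 held more. Genome-wide methylation was 37.6% to 43.7% of calls. It was 38.3% to 42.5% in SO, within the range of the other groups. Known oocyte regions served as a check of the labelled cell type. The start of Peg3, a maternally methylated imprinted gene, was at 77.1% to 100% in the 16 libraries (median 95.0%), and the region upstream of H19, which is methylated on the paternal copy, at 0% to 4.55%. IV1 had the lowest value at Peg3, and the study suspected slight contamination of IV1 by somatic cells. The Soga1 gene-body differences and permutation tests that involve IV are therefore given with and without it. Exon and bin percentages and the main limma fit include IV1. At the starts of Mest and Plagl1 named for the same check, levels were 0% to 75.0% and 0% to 5.68%, and at their most CpG-rich starts, chosen after these values were seen, 75.0% to 100% and 91.0% to 100%.

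Exons 2, 10 and 11 are shown because they lie in the 2 bins of the gene where SO lay furthest below the rest, and they were chosen after their values were seen. Their sequences (GRCm38, minus strand, 5′ to 3′) are written in lower case with each CpG in capitals, so that the capitals mark the cytosines that were measured.
Soga1 exon 2, chr2:157060188-157060412: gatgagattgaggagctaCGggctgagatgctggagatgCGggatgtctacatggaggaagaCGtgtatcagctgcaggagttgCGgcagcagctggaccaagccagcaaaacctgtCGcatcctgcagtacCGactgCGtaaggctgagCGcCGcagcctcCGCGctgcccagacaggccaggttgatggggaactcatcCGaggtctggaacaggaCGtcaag
Soga1 exon 10, chr2:157029480-157029647: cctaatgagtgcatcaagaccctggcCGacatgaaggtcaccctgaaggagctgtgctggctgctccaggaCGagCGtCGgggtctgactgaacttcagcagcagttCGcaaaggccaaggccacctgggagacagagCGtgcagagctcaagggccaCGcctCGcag
Soga1 exon 11, chr2:157027387-157027638: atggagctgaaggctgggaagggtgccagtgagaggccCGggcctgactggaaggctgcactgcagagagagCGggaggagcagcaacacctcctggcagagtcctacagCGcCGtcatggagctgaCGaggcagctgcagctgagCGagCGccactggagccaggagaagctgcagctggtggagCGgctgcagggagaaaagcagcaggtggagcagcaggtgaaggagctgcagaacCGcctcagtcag

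Exon 2 (225 bp, 13 CpGs) was almost fully methylated outside SO. In SOA 37 of 38 calls were methylated (97.4%, 95% Wilson interval 86.5 to 99.5), in IV 29 of 31 calls (93.5%, 79.3 to 98.2) and in IFC 6 of 6 calls, all from IFC1. In SO only 21 of 73 calls were methylated (28.8%, 19.7 to 40.01). By library these were 5 of 22 calls in SO3, 12 of 20 in SO4 and 3 of 29 in SO5. SO1 had 1 call, which was methylated, and SO2 had 1 call, which was not. All libraries outside SO with a call were above 80%, and the 3 SO libraries with 20 or more calls were at 60% or less. These intervals cover counting error only, and neighbouring CpGs on 1 read are not independent.

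Exons 10 and 11 divided the groups in another way. In exon 10 (168 bp, 8 CpGs), 0 of 25 calls were methylated in SO (95% Wilson interval 0 to 13.3), where a limit of 3 calls for a count of 0 allows a share of up to 12%, and 1 of 18 in IFC (5.56%, 0.988 to 25.8). In SOA 24 of 31 calls were methylated (77.4%, 60.2 to 88.6) and in IV 38 of 45 (84.4%, 71.2 to 92.3). The lowest adult library in exon 10, IV2, was at 70.0% and the highest IFC or SO library, IFC4, at 16.7%. In exon 11 (252 bp, 9 CpGs), 2 of 49 calls were methylated in SO, 1 of 15 in IFC, 14 of 21 in SOA and 14 of 30 in IV. The IV libraries spread most there, from 0 of 4 calls in IV2 to 10 of 13 in IV3. So IFC was low at these exons together with SO, while at exon 2 the only IFC library with calls was high. The IFC values rest on 18 calls from 3 libraries in exon 10 and 15 calls from 2 libraries in exon 11, and the difference was not tested.

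**Figure D1:**
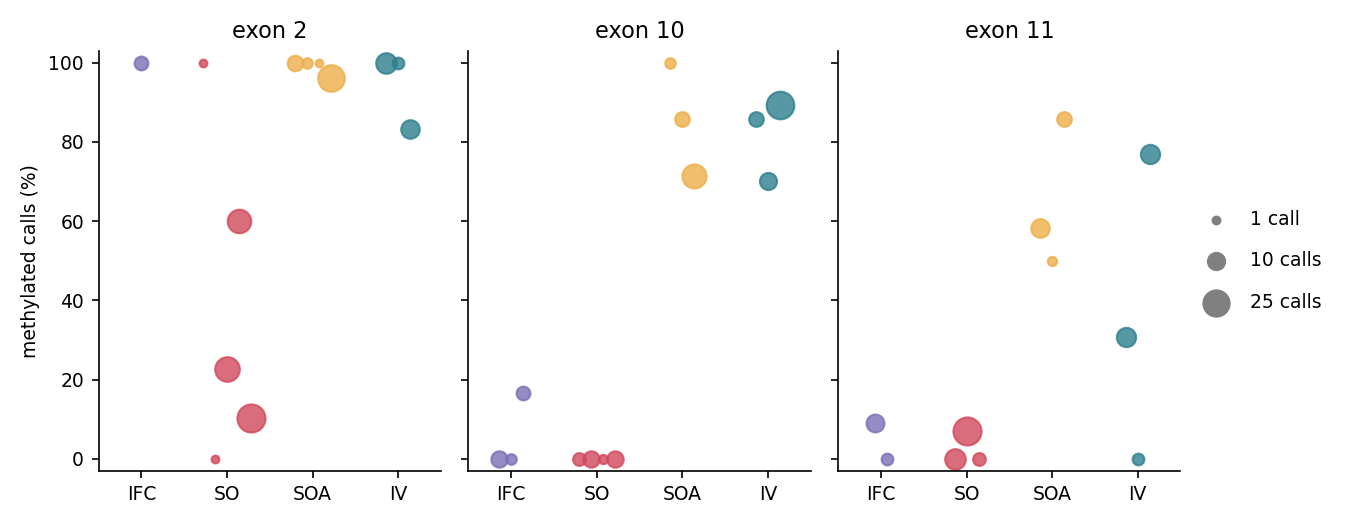
Methylated calls in percent (y axis) in exons 2, 10 and 11 of Soga1 in each library with at least 1 call, by group, with point area growing with the number of calls. Exon 2 is low in SO (21 of 73 calls, with 12 of 20 in SO4) and high in SOA (37 of 38) and IV (29 of 31). In IFC it rests on 6 of 6 calls, all from IFC1. Exon 10 is low in SO (0 of 25 calls) and IFC (1 of 18) and high in SOA (24 of 31) and IV (38 of 45).

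Over the whole gene body, each library held 295 to 1579 calls. The SO libraries were at 28.4%, 26.2%, 27.0%, 25.3% and 20.0% (SO1 to SO5). The IFC libraries were at 48.5%, 43.3%, 53.6% and 40.9% (IFC1 to IFC4). The SOA libraries were at 68.7%, 61.7%, 59.7% and 47.2% (SOA1 to SOA4), and the IV libraries at 59.4%, 48.3% and 44.5% (IV1 to IV3). Every SO library was below every other library, and the gap ran from 28.4% in SO1 to 40.9% in IFC4. The group means were 25.4% ± 3.21 (SD, n = 5) in SO, 46.6% ± 5.64 (n = 4) in IFC, 50.7% ± 7.72 (n = 3) in IV and 59.3% ± 8.95 (n = 4) in SOA. The mean of the other groups was 52.2%, and SO minus that mean was -26.8 percentage points. Over positions with at least 3 calls in a library it was -16.4 points, where SO2 had no call and SO1 was at 100% on 3 calls, and the other 3 SO libraries were at 22.2% to 24.0% on 146 to 360 calls. The SO group had the smallest spread although it mixed shallow and deep libraries. Its 2 libraries under 10000000 calls averaged 27.3% and its 3 deeper ones 24.1%. Without IV1 the SO difference was -25.4 points.

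**Figure D2:**
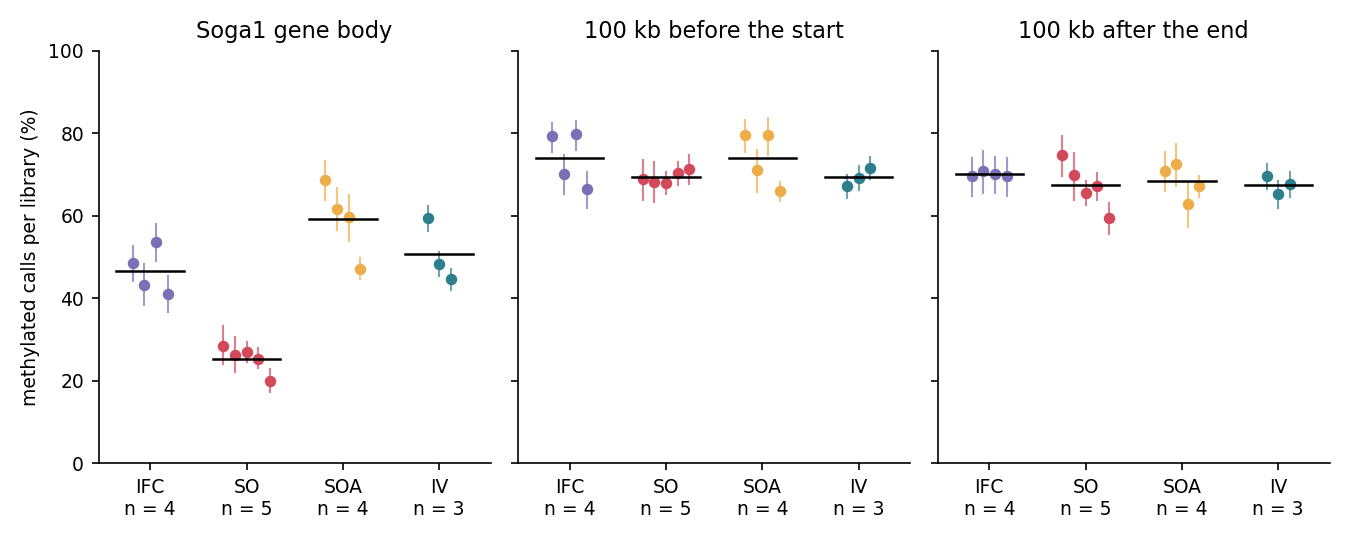
Methylated calls in percent (y axis) in each library for the Soga1 gene body and for the 100 kb on either side, by group. Points are libraries with 95% Wilson intervals and black lines are group means. The 5 SO libraries lie at 20.0% to 28.4% in the gene body, under all others, and overlap with the other groups in both flanks.

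The genome-wide level was set beside the level at Soga1. SO5 (20.0%) had the lowest genome-wide level of the SO libraries (38.3%), and SOA4 (47.2%) the lowest of SOA (37.9%). IFC4 (40.9%) was the lowest of IFC genome-wide (37.6%), and IV1 (59.4%) the highest of IV (43.2%). IFC3, the highest of IFC at Soga1 (53.6%), was at 42.0% genome-wide, below 2 of the other IFC libraries. The part of the genome-wide level in these values was not tested.

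Among the groups other than SO, the order was IFC, IV, SOA, and no neighbours in that order differed beyond their spread. The pick required each of these groups to lie above SO, so their values took part in it. Only the contrasts among them were not its criterion. IFC was lower than SOA, with a difference of -12.7 points (two-sided exact permutation test, p = 0.0857, 0.257 after Benjamini-Hochberg adjustment over 3 tests). SOA was 8.57 points above IV (exact p = 0.2, adjusted 0.3), and IFC was lower than IV, with a difference of -4.15 points (exact p = 0.486, adjusted 0.486). The smallest p that these group sizes allow is 0.0286 before adjustment. After adjustment over 3 tests, 1 contrast alone at that value would not come under 0.05. In the limma fit over all 11788 gene bodies, the IFC minus SOA difference was -12.7 ± 4.35 points (SE). Its limma p was 0.00907 unadjusted and 0.119 adjusted. In that contrast 15.6% of all gene bodies had an unadjusted p under 0.05. SOA minus IV was 8.57 ± 4.70 points (limma adjusted p = 0.648) and IFC minus IV -4.15 ± 4.70 points (limma adjusted p = 0.703). SOA1 to SOA3 averaged 63.3% and the much deeper SOA4 was at 47.2%. Among libraries under 10000000 calls, which leaves out SOA4 only, IFC minus SOA was -16.8 points. All 4 IFC libraries were under all 3 SOA libraries (exact p = 0.0286, the smallest these groups allow). With every library thinned to the same number of calls, it was -12.5 points (exact p = 0.0857). Over positions with at least 3 calls it was -39.4 points (exact p = 0.0571), and SOA minus IV was 31.5 points (exact p = 0.143), with 4 to 27 calls in each of SOA1 to SOA3 and 16 to 39 in each IFC library. Among the deeper libraries, SOA4, a single library, minus the IV mean was -3.55 points, which turns the direction of that comparison. All IFC libraries held under 10000000 calls and all IV libraries more, so group and depth class cannot be told apart in IFC minus IV. Without IV1, which leaves the IV mean at 46.4%, SOA was 12.9 points above IV (exact p = 0.267) and IFC was 0.179 points above IV (exact p = 0.933), and the smallest p these groups allow is 0.0667.

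SO had the lowest group mean in all 13 bins of 5 kb in the gene body, each of which held at least 10 calls in every library. Among the 29 exons and introns, with the calls of a group summed, SO was lowest in 27. The exceptions were exon 4, with a single CpG, and exon 6, where SO was at 25% against 9.52% in SOA, 14.3% in IV and 30% in IFC. Some of the 27 were close, such as intron 14 at 60.3% in SO and 62.5% in IFC. Over the 13 bins, SO minus the mean of the other groups ran from -40.1 to -10.1 points (median -25.3). SO was lower than that mean by at least 20 points in 11 bins. How often bins or exons and introns elsewhere in the genome have these properties was not computed. In 7 bins every SO library was below every other library. Over the 83331 bins of the genome measured to this depth, 0.0384% had that property, 32 bins in all. SO was at least 20 points below each of the other groups in 6 bins of Soga1, against 38 bins (0.0456%) genome-wide. The only 3 places where such bins lay side by side were 3 pairs of bins in Soga1. As these values chose the gene, they are no test. Leaving out single libraries gave 7 or 8 bins without overlap, and leaving out both IV1 and SOA4 gave 7. Leaving out libraries cannot lower this count, so these values are no check of it.

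**Figure D3:**
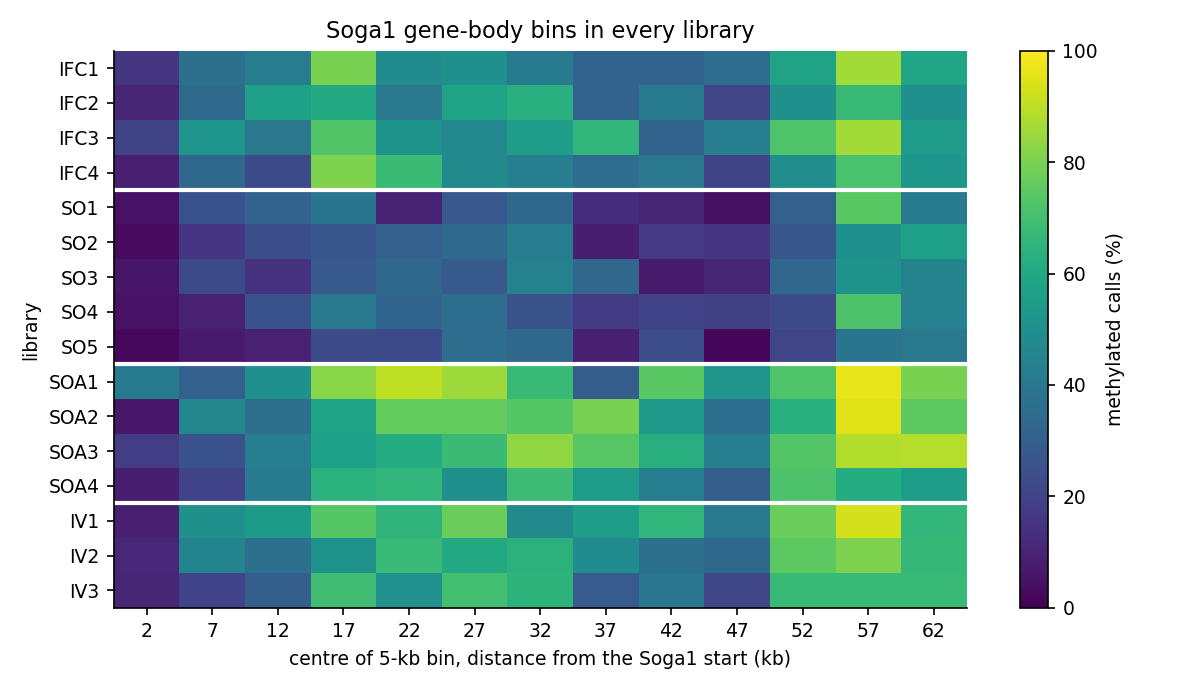
Methylated calls in percent (colour) in the 13 bins of the gene body (columns, by distance of the bin centre from the gene start in kb) in each library (rows, white lines between groups). The SO mean is the lowest in every bin, and in 7 of the 13 bins each SO row is darker than all other rows. Every group mean is lowest in the bin at the start and highest in the bin at 57 kb.

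The largest difference was in the bin chr2:157025001-157030000, which holds exons 10 and 11 and the intron between them. The SO libraries were at 30.6%, 26.7%, 33.1%, 22.8% and 21.0% there, and the IFC libraries at 57.6%, 50%, 72.4% and 49.0%. SOA was at 72.3%, 63.6%, 73.2% and 72.3%, and IV at 77.1%, 74.7% and 67.7%. No SO library reached the lowest of the others, and SO minus their mean of 66.9% was -40.1 points. Intron 10 lies between exons 10 and 11, and IFC was high there, with 75.7% of calls methylated against 31.8% in SO, 74.6% in SOA and 77.5% in IV. The next bin by size, chr2:157060001-157065000, holds exon 2 and the end of intron 1. The SO libraries were at 38.9%, 26.7%, 28.0%, 40.3% and 22.9%, and IFC was the highest group with a mean of 73.7% ± 9.11 (SD, n = 4). SOA was at 65.3% ± 11.6 (n = 4) and IV at 64.6% ± 12.01 (n = 3). The bin chr2:157055001-157060000 lies in intron 2, and SO averaged 25.8% ± 9.81 (n = 5) against 62.2% over the other groups.

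The smallest differences were at the ends of the gene. In chr2:157075001-157080000, which holds exon 1 and the start, SO was at 4.13% ± 1.51 (n = 5) and the other groups at 14.2%, a difference of -10.1 points. In relative terms it was the largest over all libraries, as the SO level was 0.290 of the others. The next bin by this measure, chr2:157030001-157035000, was at 0.302. The SOA mean in the bin at the start was 18.5% ± 15.8 (n = 4), raised by SOA1, and the rank without SOA1 was not computed. At chr2:157015001-157020000, which holds the last exon, SO was at 45.3% ± 6.42 (n = 5) and the others at 65.3%. Over the 13 bins the SO level was 0.290 to 0.704 of the mean of the others, with a median of 0.441. The shape along the gene was shared. Across the 13 bins, which are not independent replicates, the profiles of any 2 groups had Pearson r between 0.828 and 0.938.

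**Figure D4:**
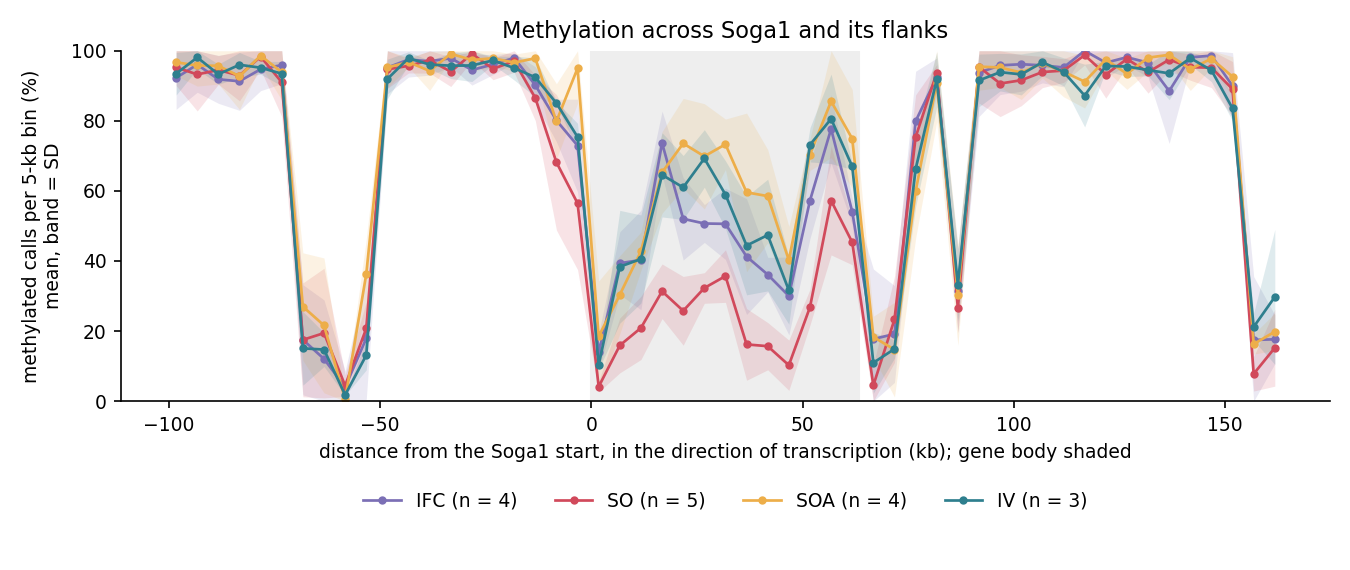
Methylated calls in percent (y axis, group mean with a band of 1 SD) in bins of 5 kb against distance from the Soga1 start in kb, in the direction of transcription, for bins with calls in all libraries. SO runs below the other groups through the shaded gene body, is also lowest in the first bin beyond its end (-11.2 points), and is lower in the first bins before the start, with differences of -24.6 and -13.5 points.

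Among the other groups, the main test of single bins called differences only between IFC and SOA. IFC and SOA differed in 3 of the 13 bins, always with IFC lower, by a logistic likelihood-ratio test with adjusted p under 0.05 and at least 20 points between means. Genome-wide this rule called IFC lower in 2.71% of bins and IFC different in 4.65%. The 3 bins were chr2:157035001-157040000 (-22.4 points, adjusted p = 0.00814), chr2:157045001-157050000 (-22.7 points, adjusted p = 0.0115) and chr2:157055001-157060000 (-21.5 points, adjusted p = 0.0164). A quasi-binomial test and limma on the same bins both called 0 of 13, where they called 0.0775% and 0.418% of bins genome-wide. At an unadjusted p under 0.05 they gave 3 and 4 of 13, against 11.6% and 10.2% genome-wide. The likelihood-ratio count was 1 without IFC1 (4.67% genome-wide) and 5 without SOA4 (4.75%). SOA and IV differed in 0 of 13 bins by the likelihood-ratio test, where 0.504% of bins were called genome-wide, and IFC and IV in 0 of 13 against 4.51%. At an unadjusted p under 0.05 with no limit on size, the likelihood-ratio test gave 6 of 13 for IFC and SOA. For SOA and IV it gave 3 of 13, and for IFC and IV 4 of 13. Genome-wide it gave 21.5%, 21.1% and 23.8% of bins in the same order. With adjusted p, limma and the quasi-binomial test called 0 of 13 for SOA and IV and for IFC and IV. At an unadjusted p under 0.05 the quasi-binomial test gave 0 and 3 (6.01% and 9.45% genome-wide) and limma 0 and 0 (6.08% and 9.81%).

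Methylation at the start itself was low throughout. In the window from 1000 bp before to 500 bp after the start (157 CpGs), the libraries were at 0% to 12.5%, with SOA3 without a call. SO averaged 0.576% ± 0.792 (n = 5), IV 2.34% ± 0.850 (n = 3), IFC 5.27% ± 3.67 (n = 4) and SOA 6.51% ± 5.198 (n = 3). Exon 1, with 147 CpGs, had 1.408% of calls methylated in SO, 3.42% in IFC, 4.47% in SOA and 3.32% in IV. The SO libraries overlapped the others in this window, where 8 to 185 calls per library with any call limit what can be seen. Soga1 had no entry in the RefSeq promoter table used here.

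Averaged over 100 kb on either side, the SO libraries overlapped the other groups. In the 100 kb before the start, SO averaged 69.4% ± 1.45 (n = 5), and the others 73.9%, 74.0% and 69.4% (IFC, SOA and IV). In the 100 kb after the end, SO averaged 67.3% ± 5.69 (n = 5) and the others 70.0%, 68.4% and 67.5%. Of 13 flank bins with enough calls, 1 was at least 20 points lower in SO, the first bin before the start (chr2:157080001-157085000). Here SO was at 56.5% and the others at 81.1%. The SO libraries spread widely in it, from 33.3% to 77.4%, on 10 to 64 calls, and overlapped IFC and IV. Over the 13 flank bins the median difference was 0.342 points. SO also had the lowest mean in 2 other bins close to the gene that had fewer than 10 calls in a library. The difference was -13.5 points in chr2:157085001-157090000, the second bin before the start, and -11.2 points in chr2:157010001-157015000, the first bin after the end, and in both the SO libraries overlapped the others.

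The low level in SO was spread over many CpGs. Of 357 CpGs with at least 5 calls when the SO libraries were merged, 49.9% were under 20% methylated and 2.24% above 80%. In IV, of 273 such CpGs, 19.05% were under 20% and 18.7% above 80%. In SOA the shares were 13.3% and 25% of 120 CpGs, and in IFC 13.3% and 8.89% of only 45 CpGs. The median CpG was at 20% in SO, 50% in IFC, 60% in SOA and 57.1% in IV. Each group's set holds the CpGs that reached 5 calls in it. The shares and medians therefore compare differing CpGs, and the sets were not limited to CpGs away from the weakly methylated start. Positions with exactly 2 calls in a library show how often both calls were the same. Both were unmethylated at 61.8% of 555 such positions in SO, against 37.5% of 200 in IFC, 32.2% of 342 in SOA and 35.5% of 535 in IV. Mixed pairs made up 24.0% in SO, 25.5% in IFC, 31.9% in SOA and 27.7% in IV. Both DNA strands gave the same order of SO against the rest. On the forward strand SO was at 27.2% ± 5.02 (n = 5) and on the reverse strand at 24.4% ± 2.31 (n = 5), while the lowest other mean was 44.9% in IFC on the forward strand.

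Soga1 had the most negative SO difference of all 11788 gene bodies. The median gene body differed by -0.0964 points between SO and the mean of the other groups, and the SD over genes was 3.54. SO lay at least 20 points below each other group in 2 gene bodies (0.017%), Soga1 among them, and all SO libraries were below all others in 12 (0.102%). After Soga1 the largest of these 12 was Dok7, an adaptor of the muscle receptor kinase MuSK, at -24.7 points. As the gene was picked for this contrast, its rank is a description.

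**Figure D5:**
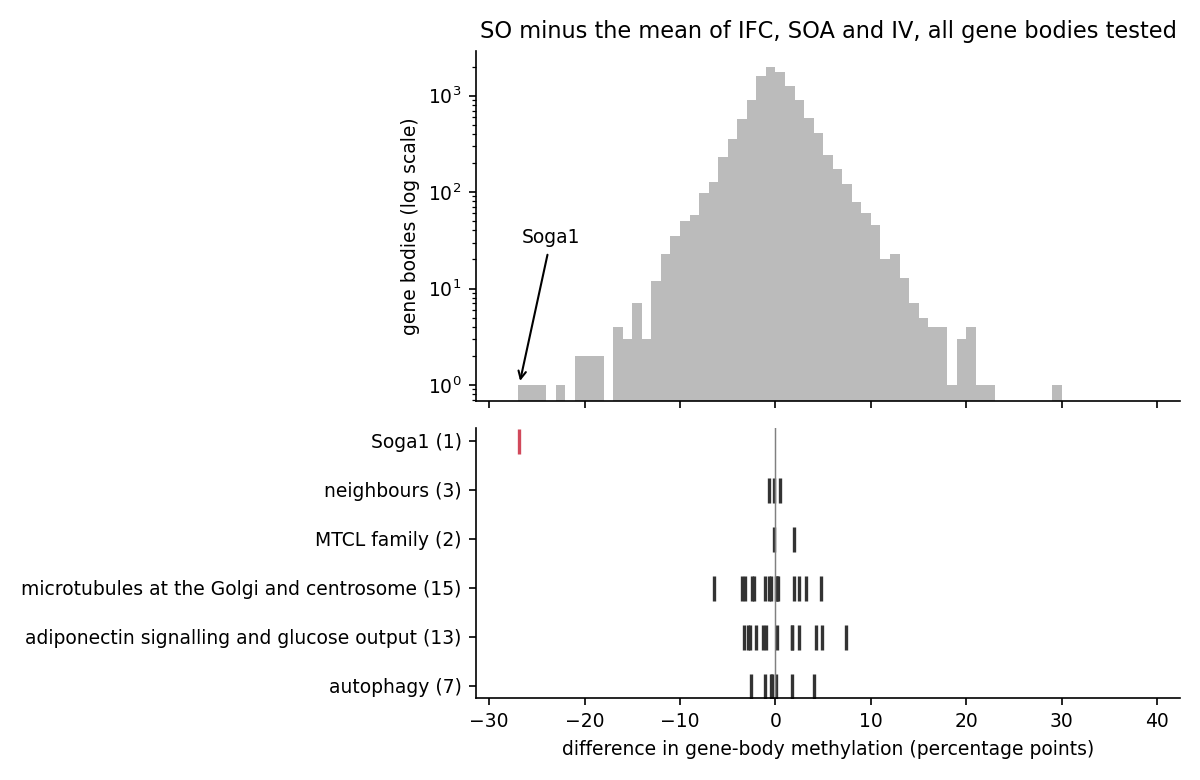
Top, number of gene bodies (y axis, log scale) by the difference in methylation between SO and the mean of IFC, SOA and IV in percentage points (x axis), for 11788 gene bodies. Bottom, the same difference for Soga1 (-26.8), and for its 3 neighbours and the 37 genes of 4 lists with enough calls, 1 tick per gene. All ticks but Soga1 lie between -6.45 and 7.35 points.

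The 5 protein-coding genes within 100 kb of Soga1 had SO libraries that overlapped the others. Ndrg3 was at 86.6% in SO, and at 87.8%, 87.1% and 85.0% in IFC, SOA and IV. Samhd1, which encodes a dNTP hydrolase, was at 80.9% in SO, and Rbl1, which encodes a relative of the retinoblastoma protein, at 81.7%. SO differed from the mean of the other groups by -0.113 points at Ndrg3, 0.458 at Samhd1 and -0.679 at Rbl1. The 2 nearest genes had too few calls for the test. Dsn1, a kinetochore subunit 8645 bp beyond the end of Soga1, was at 66.8% in SO and 8.25 points above the others, and Tldc2, 7801 bp before the Soga1 start, was at 86.6% with a difference of -5.28 points. Among IFC, SOA and IV, none of the 3 tested neighbours passed the limma test, with adjusted p between 0.523 and 0.960, where it called 4.86% of all gene bodies between IFC and SOA, 0% between SOA and IV and 3.96% between IFC and IV. At an unadjusted p under 0.05 the count was also 0 of 9, against 15.6%, 7.6% and 16.2% of gene bodies in the same order.

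The genes whose body followed Soga1 most closely over the 16 libraries lay elsewhere. The highest Pearson r was with Htra3 (0.91), which encodes a secreted serine protease, at 37.5% ± 8.94 in SO (n = 5), 52.1% in IFC, 55.4% in IV and 66.1% in SOA. The next were Slc12a1, the sodium-potassium-chloride cotransporter of the kidney (r = 0.90), Adgrl3, an adhesion receptor (r = 0.90), Cpne4, a copine (r = 0.88), and Camk2b, a subunit of a calcium-dependent kinase (r = 0.87). SO had the lowest mean in all 5. In Slc12a1 it was at 45.5% against 51.4% in IFC, 57.8% in SOA and 56.0% in IV, so its range was far narrower than that of Soga1. The 16 points share group, depth and genome-wide level, and the median r over 9948 protein-coding genes was 0.0936. With group means removed, r was 0.70 to 0.79 for these 5 genes and the median over genes was 0.29. As the 5 genes were picked for a high r over the same libraries, this is a description.

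The next genes were listed for related roles. Of 46 listed genes, 37 had enough calls. The relatives of Soga1 in the MTCL family differed little between groups, Mtcl1 at 30.4% in SO against 28.3%, 29.7% and 27.4% in IFC, SOA and IV, and Soga3 at 5.74% against 7.36%, 5.02% and 5.16%. Among 15 genes for microtubules at the Golgi and centrosome, SO minus the others ran from -6.45 points at Tubgcp2, a gamma-tubulin ring subunit, to 4.78 points at Mark2, a microtubule-affinity kinase (median -0.489). Most of them were highly methylated, such as Golgb1, a Golgi matrix protein, at 89.2% in SO. Among 13 genes of adiponectin signalling and glucose output, the difference ran from -3.26 points at Foxo1 to 7.35 points at Prkaa1, a catalytic subunit of AMPK (median 0.155). The receptor genes Adipor1 and Adipor2 were at 68.8% and 43.5% in SO. Among 7 autophagy genes it ran from -2.61 points at Atg16l1 to 4.05 points at Tfeb, the transcription factor of lysosomal genes (median -0.416). In none of the 4 lists did a tested gene have all SO libraries below all others, a property of 0.102% of all gene bodies.

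None of the 37 listed genes passed limma with adjusted p under 0.05 in any of the 6 comparisons. Over all gene bodies, limma called 0.73% between IFC and SO, 1.87% between SO and SOA, 1.24% between SO and IV, 4.86% between IFC and SOA, 3.96% between IFC and IV, and 0% between SOA and IV. At an unadjusted p under 0.05, 1 to 5 listed genes passed per comparison, against 7.6% to 16.2% of all gene bodies. The closest to the threshold were Cdh13, the cadherin that binds adiponectin, between IFC (37.8%) and SOA (47.8%) with an adjusted p of 0.0717, and Rptor, a subunit of mTORC1, between IFC (91.9%) and IV (87.1%) with an adjusted p of 0.0771.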

How the data were processed

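PBAT libraries were trimmed with Trim Galore 0.4.4 (cutadapt 1.9.1) and mapped to GRCm38 with Bismark 0.19.0, per the labels and the study's methods. The authors deposited, for each of 16 libraries, the counts of methylated and unmethylated calls at each covered CpG position, with the percent methylated, which matched the counts to within 0.01. Positions were 97.6% to 99.3% reference CpGs. Depth was 5218053 to 23065411 calls per library, so a single position carries little information.

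Calls were summed per library over gene bodies (GENCODE), 5-kb bins and exons, and the percentage was methylated calls over all calls. Group values are means ± SD over libraries. Whether libraries of a group came from different females is only partly given, so p-values measure the spread between these pools. IFC, SOA and IV were compared by two-sided exact permutation tests over libraries. Bins with at least 10 calls in each library compared were tested genome-wide by a logistic likelihood-ratio test, with Benjamini-Hochberg adjustment and a limit of 20 points. The study applied logistic regression with this limit to runs of 100 CpGs with another minimum, and such runs were an alternative here. Gene bodies with at least 50 calls in all 16 libraries were tested with limma 3.58.1 (R 4.3.3) in 1 fit. The scripts were tested on simulated data. The likelihood-ratio test takes calls as independent, which makes its p-values too small where libraries vary more than binomial sampling (median dispersion 1.25 to 1.58).

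Soga1, the gene lists and the tests were chosen with earlier results of these data known. Text names Soga1, the 3 bins with the largest and 2 with the smallest SO difference, every protein-coding gene within 100 kb, the 5 protein-coding genes with the highest r, and genes of 4 lists. Exons 2, 4, 6, 10 and 11, intron 10, the flank bins and Dok7 were named after their values were seen. The same holds for the parts of the gene under other observations. Alternatives covered call minimums, bin types, other tests, depth classes, the replicate number and single libraries left out. Sequences were read from the GRCm38.p6 reference.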

Additional observations from a re-analysis of the deposited data

Results flagged for a closer look

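In 5 of 41 tested groups of values, 1 library lay far from the rest of its group by Dixon's criterion, where chance alone gives about 1 in 20. SO2 was the highest SO library at Ndrg3 (94.1%, the others 83.3% to 86.0%), at Tldc2 (96.3%, the others 82.1% to 86.0%) and in the Soga1 bin chr2:157015001-157020000 (56.2%, the others 40% to 44.6%). SOA2 was the lowest SOA library at Dsn1 (46.2%, the others 59.2% to 61.3%) and in the Soga1 bin chr2:157025001-157030000 (63.6%, the others 72.3% to 73.2%). SO2 and SOA2 hold the fewest calls of all libraries, 5247001 and 5218053. No library of IFC, SO or SOA was flagged for the whole Soga1 gene body, and IV, with 3 libraries, was not tested.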

How the results depend on the processing

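Of 194 alternative values, 161 were counted as kept. For the gene-body contrasts among IFC, SOA and IV this means the same direction and the same side of the threshold. For the SO difference it means a change smaller than the pooled SD within groups, and for counts an equal or similar count. Some of the gene-body tests could not pass the threshold. With the replicate block, and in some runs with fewer libraries, the smallest p allowed was 0.0667 to 0.25. The SO difference at Soga1 was -29.0 to -25.3 points except over positions with at least 3 calls, where it was -16.4 with SO1 at 3 calls and SO2 at none. Over those positions IFC minus SOA was -39.4 and SOA minus IV 31.5, against -12.7 and 8.57 over all positions, and IFC minus IV was -7.96. IFC minus SOA was -16.8 points in libraries under 10000000 calls, and SOA minus IV was -3.55 in deeper libraries. SOA minus IV ran from 5.44 to 12.9 and IFC minus IV from -7.24 to 0.179 with single libraries left out. Of 13 bins, IFC and SOA differed in 3, but in 0 by the quasi-binomial test and 0 by limma. They differed in 1 of the 6 tested at 20 calls (3.7% of bins genome-wide), 5 with no limit (9.92%) and 0 at 30 points (1.82%). With single libraries left out the count was 1 to 5 (4.45% to 4.75%). Other bin types gave 4 of 11 shifted bins (4.45%), 2 of 6 bins of 10 kb (3.86%) and 4 of 10 runs of 100 CpGs (3.95%). SOA and IV differed in 1 bin with no limit (5.63%) and in 0 to 1 with libraries left out (0.45% to 1.05%). IFC and IV differed in 1 of 12 shifted bins (4.56%), in 2 with no limit (10.9%), and in 0 to 1 with libraries left out (4.49% to 5.01%). The likelihood-ratio test called 13, 10, 19, 18, 16 and 23 listed genes (IFC vs SO, SO vs SOA, SO vs IV, IFC vs SOA, SOA vs IV, IFC vs IV), where it called 25.5%, 32.2%, 42.4%, 38.2%, 35.1% and 46.1% of all gene bodies. At 200 calls limma called 1 (IFC vs SOA) and 3 (IFC vs IV) of the 17 listed genes tested, against 10.5% and 10.7% of all gene bodies, and with libraries left out 0 to 1 of 37 in both (3.71% to 4.72% and 2.15% to 4.25% of gene bodies). The cause of these changes was not tested.

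Replicate numbers only name libraries, since deviations of equal numbers correlated at -0.0406 to 0.0742 over 21 pairs. With the replicate number as a block, the SO difference was -25.3, IFC minus SOA -12.7, SOA minus IV 12.6 and IFC minus IV -2.27 points. Bin calls under the block were 4, 0 and 0 (4.8%, 0.538% and 4.11% genome-wide), and limma called 1 of 37 listed genes for IFC vs SOA (4.71% of gene bodies) and 1 for IFC vs IV (4.14%). The IFC values of exons 2, 10 and 11 rest on 6, 18 and 15 calls.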

Other observations

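The body of Soga1 also held a short stretch that was low in all groups. Of the calls in exon 8 (231 bp, 8 CpGs), 6.12% were methylated in SO, 21.7% in IFC, 8% in SOA and 14.3% in IV, and intron 8 beside it was at 7.69%, 13.6%, 8.33% and 17.6% in the same order. Towards the end of the gene, intron 12 was high in all groups, at 84.4% in SO, 90.9% in IFC, 91.7% in SOA and 100% in IV, on 0 to 14 calls per library. In exon 5, with 66 CpGs, the values were 12.4% in SO, 31.4% in IFC, 46.4% in SOA and 41.2% in IV. These are shares of calls pooled over a group's libraries, chosen after the values were seen, and they were not tested. In the bin at the start, SOA1 was at 40.9% on 22 calls, while the other SOA libraries were at 6.58%, 18.2% and 8.29%.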
